A study of Sus scrofa with 6 samples.

Results

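The genes described here were measured in the abdominal aorta of Wuzhishan miniature pigs. They are the Wnt ligands, Frizzled and LRP receptors, proteins that limit or boost the signal outside the cell, and the intracellular AXIN2 and LEF1. They were chosen by name: genes starting with WNT, FZD, SFRP or DKK and a digit, together with FRZB, WIF1, LRP5, LRP6, RSPO1, RSPO2, RSPO3, AXIN2 and LEF1. This gave 45 of the 30477 genes in the table, all protein coding, and 41 of them carry the KEGG annotation of the Wnt signaling pathway. The samples were abdominal aortas of 3 male pigs on a normal chow diet (NC) and 3 male pigs on a diet high in fat, cholesterol and fructose (HFCF), with 1 library from each. Feeding lasted 6 months in both groups. The labels give an age of 3 to 4 months, while the methods give an older age at purchase. The HFCF feed was chow mixed with shortening oil, egg yolk powder, cholesterol and fructose.

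Wnt proteins are lipid-modified signals that bind a Frizzled receptor and, for the beta-catenin branch, the co-receptor LRP5 or LRP6. Binding stops a cytoplasmic complex built on AXIN proteins from destroying beta-catenin, which then drives transcription with TCF and LEF factors. Secreted Frizzled-related proteins (SFRPs), FRZB and WIF1 bind Wnt proteins outside the cell, Dickkopf (DKK) proteins 1, 2 and 4 act on LRP5 and LRP6, and R-spondins keep Frizzled receptors at the cell surface. In the artery wall the pathway is studied in smooth muscle growth, in the adventitia and in calcification.

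Levels are given as FPKM, fragments scaled to gene length and to the mapped reads of a library, so that different genes can be compared. FPKM does not keep the read depth. Steps between low values gave depths of 1.09 and 1.37 in NC pigs 2 and 3 and of 1.03 to 1.07 in the HFCF pigs, relative to NC pig 1. The HFCF pigs had FPKM sums of 330222 to 338690 and the NC pigs of 272207 to 287141. Fold changes are differences of log2(FPKM + 0.1), HFCF minus NC, tested with limma over 15384 genes with a mean of at least 0.1 FPKM, and a gene passed at an adjusted p under 0.05. Over the genes tested the median of these differences was 0.32, so fold changes relative to this median are also given for the Wnt genes that passed. Among all tested genes 22.8% passed as higher and 6.16% as lower in the HFCF group (3505 and 948 genes, 28.9% in either direction), a split that became 2035 and 1969 with median-ratio scaling, 1748 and 1782 with quantile normalization and 2229 and 1527 with rescaling to TPM.

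Of the 45 Wnt genes, 35 reached the expression limit and 10 did not. Among the 35, FZD6, DKK2 and WNT10B rose and FZD7, LRP5, FRZB, SFRP4 and AXIN2 fell, which is 8.57% higher and 14.3% lower. The 3 scalings changed this split: FZD6 alone passed as higher with median-ratio scaling and TPM and no member did with quantile normalization, while 7 members passed as lower with each of them, the 5 above with WNT11 and WNT9B. The values of the 3 HFCF and 3 NC pigs did not overlap in 6 members that were higher and 9 that were lower, against 36.1% and 12.1% of all tested genes (48.2% in either direction). The median log2 fold change of the 35 was 0.01. Relative to the median of all tested genes, the 5 that fell lay at -1.71 (LRP5), -1.63 (FRZB), -1.49 (FZD7), -1.33 (AXIN2) and -1.09 (SFRP4), and the 3 that rose at 1.66 (FZD6), 1.0 (DKK2) and 0.88 (WNT10B). Without 1 pig, between 0 and 4 members passed as higher and between 2 and 6 as lower. FZD7 and LRP5 passed as lower without any single pig. Without NC pig 1 no member passed as higher in limma, where 3 had an unadjusted p under 0.05.

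**Figure D1:**
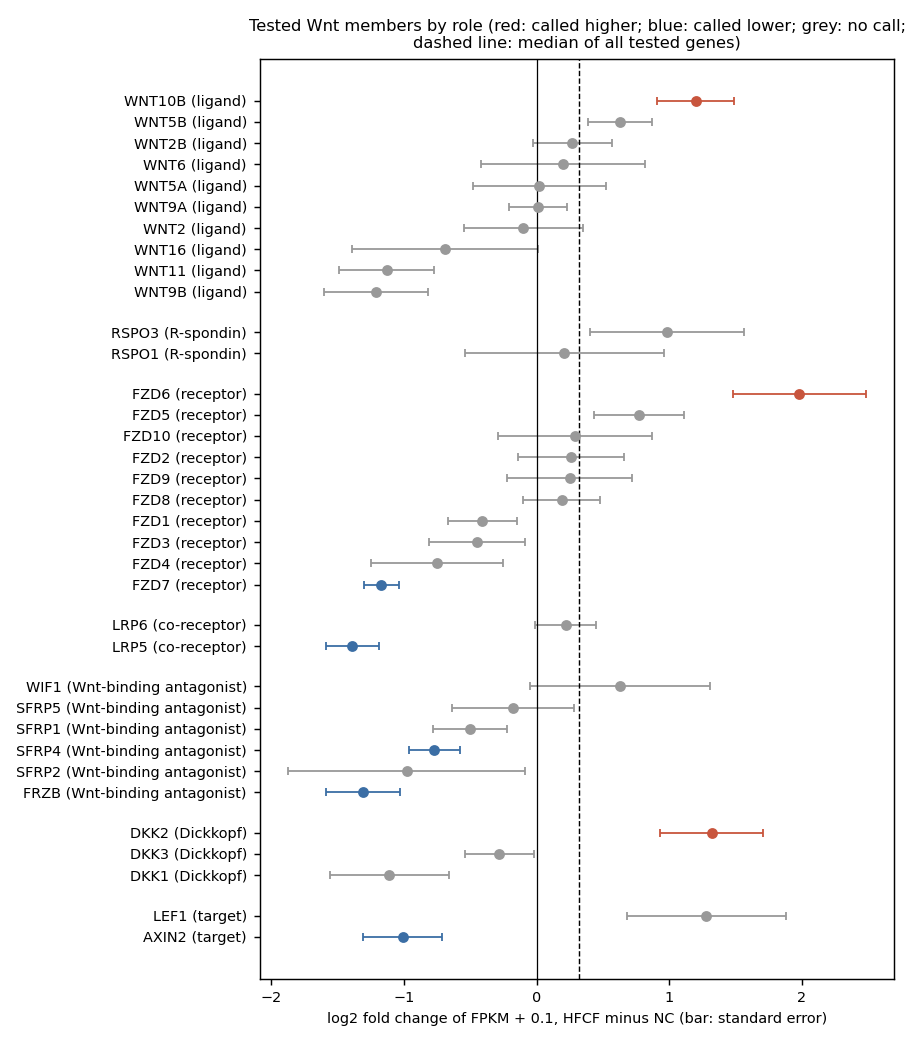
Log2 fold changes (HFCF minus NC, x axis) of the 35 tested Wnt genes, grouped by role on the y axis, with standard errors as bars. Genes that passed as higher are red and as lower blue, and the dashed line marks the median of all tested genes at 0.32. FZD6 lies farthest to the right at 1.98 and LRP5 farthest to the left at -1.39.

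Most of the 18 Wnt ligand genes were low. WNT1, WNT3A and WNT8A were listed at 0 in all 6 pigs, and WNT7A, WNT7B, WNT8B, WNT10A and WNT3 stayed under the limit of 0.1 FPKM on average. The highest ligand was WNT5B, which signals largely without beta-catenin. It had 5.63, 9.45 and 5.18 FPKM in the NC pigs and 9.60, 10.4 and 10.5 FPKM in the HFCF pigs. Every HFCF pig was above every NC pig, although NC pig 2 came close. The WNT5B log2 fold change of 0.63 was 0.31 above the median of all genes and did not pass (SE 0.24, adjusted p = 0.092, limma), and passed in 1 of 15 alternatives, at 0.90 without NC pig 2 (adjusted p = 0.0232, limma). With the 3 scalings it was 0.28 to 0.38 (adjusted p from 0.274 to 0.409, limma).

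WNT10B (ENSSSCG00000000182), a ligand of the beta-catenin branch known for holding back fat cell formation, was the ligand that rose. It had 0.303, 0.473 and 0.454 FPKM in the NC pigs and 1.06, 0.927 and 1.21 FPKM in the HFCF pigs. The groups were clearly apart, at low levels. The group means were 0.410 ± 0.093 and 1.06 ± 0.14 FPKM (SD, n = 3 each), and the log2 difference was 1.20 (SE 0.29, adjusted p = 0.0219, limma). This call was lost in 8 of 14 alternatives, with adjusted p from 0.0126 to 0.205 in limma, among them the 3 scalings and leaving out NC pig 1 (0.0697), HFCF pig 2 (0.051) or HFCF pig 3 (0.0627).

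WNT11, a ligand of beta-catenin-independent signaling, had 3.85, 4.05 and 3.04 FPKM in the NC pigs and 0.996, 1.51 and 2.71 FPKM in the HFCF pigs. All HFCF values lay below all NC values, with HFCF pig 3 close to NC pig 3. The WNT11 log2 fold change of -1.13 was 1.45 on the log2 scale below the median of all genes, and it just missed the limit with the deposited values (SE 0.36, adjusted p = 0.0534, limma). WNT11 did not pass in 10 of 15 alternatives, among them leaving out HFCF pig 1, where the log2 fold change was -0.81 (adjusted p = 0.103, limma), or NC pig 1 (0.148). It passed with the 3 scalings (0.0275 to 0.0326), with a filter of 1 FPKM (0.0478) and without HFCF pig 3, at -1.49 (adjusted p = 0.0184, limma). WNT9B showed the same direction at lower levels, with 0.614 to 0.954 FPKM in the NC pigs and 0.178 to 0.501 FPKM in the HFCF pigs (adjusted p = 0.0541, limma). It was singled out after its values were seen.

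WNT9A had 3.36 ± 0.24 FPKM in the NC and 3.44 ± 0.83 FPKM in the HFCF pigs (SD, n = 3 each), and the log2 difference of 0.01 turned negative with the 3 scalings. WNT2B had 0.860 ± 0.281 and 1.03 ± 0.14 FPKM (SD, n = 3 each), with overlapping values. The remaining tested ligands, WNT2, WNT5A, WNT6 and WNT16, had group means of at most 0.488 FPKM and overlapped between the diets.

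Within a pig, shares of a gene in its class do not depend on how the libraries are scaled to each other. WNT5B made up 35.0%, 44.7% and 36.8% of the summed ligand FPKM in the NC pigs, and 54.6%, 58.0% and 49.1% in those on the HFCF diet. WNT11 made up 23.9%, 19.1% and 21.6% in the NC pigs, and 5.66%, 8.40% and 12.7% in those on the HFCF diet. So WNT5B took a larger and WNT11 a smaller part of the ligand FPKM in every HFCF pig. The exact two-sided permutation test gave p = 0.1 for both, the smallest value that 3 pigs against 3 allow, and 0.2 after Benjamini-Hochberg adjustment over 12 shares tested. The summed ligand FPKM itself was 14.1 to 21.2 in the NC and 17.6 to 21.4 in the HFCF pigs.

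Among the R-spondins, RSPO3, known in vessels for its part in endothelial growth, was the only one with a group mean above 1 FPKM. It had 3.84, 8.16 and 1.93 FPKM in the NC pigs and 5.63, 5.68 and 15.3 FPKM in the HFCF pigs. The groups overlapped, and HFCF pig 3 stood high. RSPO3 had a log2 fold change of 0.98 (SE 0.58, adjusted p = 0.242, limma). The summed FPKM of the 7 fibroblast markers, given here for comparison, was 2508, 2869 and 1408 in the NC pigs, and 1737, 1941 and 3036 in those on the HFCF diet. For RSPO3 and this sum the pigs stood in the same order within each diet, but RSPO3 was nearly equal in HFCF pigs 1 and 2. In the HFCF group the shared order is therefore mainly that pig 3 was highest. Single markers differed in this. HFCF pig 3 was highest for PDGFRA, DCN, PI16, COL1A1 and FBLN1. It was the lowest HFCF pig for LUM (200.2, 174.5 and 154.0 FPKM in HFCF pigs 1, 2 and 3) and DPT (19.2, 13.7 and 11.3 FPKM). The part of fibroblast content in RSPO3 was not tested.

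Among the 10 Frizzled receptors FZD6 rose, FZD7 fell and 8 did not pass. FZD7 (ENSSSCG00000016111), the receptor with the highest FPKM in every pig, had 44.9, 43.2 and 43.5 FPKM in the NC pigs and 17.5, 19.7 and 21.2 FPKM in the HFCF pigs. The spread inside each diet was small and the groups were far apart. The means were 43.9 ± 0.9 and 19.5 ± 1.9 FPKM (SD, n = 3 each), a ratio of 0.444 with a log2 fold change of -1.17 (SE 0.13, adjusted p = 0.00198, limma). FZD7 passed in all 15 alternatives, with log2 fold changes from -1.53 to -1.10.

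FZD6 (ENSSSCG00000006052), a receptor tied mainly to signaling without beta-catenin, moved the other way. It had 0.512, 1.503 and 0.406 FPKM in the NC pigs and 4.56, 2.96 and 2.06 FPKM in the HFCF pigs. All HFCF pigs were above all NC pigs, although NC pig 2 was near HFCF pig 3. The means were 0.807 ± 0.605 and 3.19 ± 1.27 FPKM (SD, n = 3 each), a ratio of 3.96 with a log2 fold change of 1.98 (SE 0.50, adjusted p = 0.0258, limma). The call was lost with quantile normalization (0.0714) and without NC pig 1 (0.0929), NC pig 3 (0.0695), HFCF pig 1 (0.0688) or HFCF pig 2 (0.0634). The log2 fold change stayed between 1.22 and 2.49 over 15 alternatives.

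FZD1 was second to FZD7 in the NC pigs, with 15.2, 19.9 and 20.9 FPKM, and had 10.22, 19.4 and 13.3 FPKM in the HFCF pigs. These values overlapped (log2 fold change -0.41, SE 0.26, adjusted p = 0.265, limma). FZD2 and FZD8, at 4.96 ± 2.48 and 5.02 ± 1.1 FPKM in the NC and 5.74 ± 1.91 and 5.87 ± 1.97 FPKM in the HFCF pigs (SD, n = 3 each), overlapped as well. FZD4 was at 1.05 ± 0.53 and 0.570 ± 0.322 FPKM (SD, n = 3 each), again with overlap. FZD5 had 0.151 to 0.309 FPKM in the NC and 0.406 to 0.560 FPKM in the HFCF pigs, without overlap, and did not pass (adjusted p = 0.133, limma). FZD3 had 0.133 to 0.224 FPKM in the NC and 0.083 to 0.126 FPKM in the HFCF pigs, also without overlap. FZD3 did not pass (adjusted p = 0.378, limma). FZD9 and FZD10, with overlapping values, had group means of at most 0.386 FPKM.

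**Figure D2:**
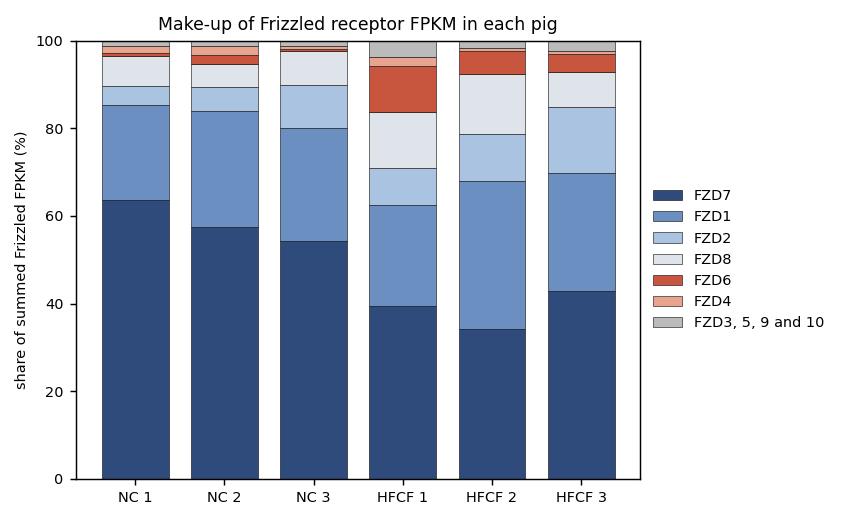
Stacked bars of the share (%) of each Frizzled gene in the summed Frizzled FPKM of each pig (x axis). FZD7 takes 54.2% to 63.7% in the NC pigs and 34.3% to 42.9% in the HFCF pigs, and FZD6 at most 2.0% in the NC pigs and at least 4.16% in the HFCF pigs.

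As a share of all Frizzled FPKM, FZD7 had 63.7%, 57.5% and 54.2% in the NC pigs, and 39.5%, 34.3% and 42.9% in those on the HFCF diet. The mean share was 58.5% in the NC and 38.9% in the HFCF group. The share of FZD6 was 0.726%, 2.0% and 0.506% in the NC pigs, and 10.3%, 5.14% and 4.16% in those on the HFCF diet. Neither share overlapped between the diets, and the exact permutation test gave its smallest possible p of 0.1 for each (0.2 adjusted over 12 shares). FZD1 kept 21.5% to 26.5% in the NC and 23.1% to 33.8% in the HFCF pigs. In the HFCF pigs FZD7 was at 1.01 to 1.71 times the FPKM of FZD1, against 2.08 to 2.96 times in the NC pigs.

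LRP5 and LRP6 are the paired co-receptors of the beta-catenin branch. LRP5 (ENSSSCG00000012885) had 70.7, 59.4 and 91.2 FPKM in the NC pigs and 24.4, 32.9 and 26.2 FPKM in the HFCF pigs. The highest HFCF pig was far below the lowest NC pig. The means were 73.8 ± 16.1 and 27.8 ± 4.5 FPKM (SD, n = 3 each), and the log2 difference was -1.39 (SE 0.20, adjusted p = 0.0043, limma), and LRP5 passed in all 15 alternatives. LRP6 had 2.95, 3.96 and 2.46 FPKM in the NC pigs and 3.20, 3.48 and 4.11 FPKM in the HFCF pigs. These values overlapped, with a log2 fold change of 0.22 (SE 0.23, adjusted p = 0.517, limma) that turned negative with the 3 scalings. Within a pig LRP5 was at 15.0 to 37.0 times the FPKM of LRP6 on chow and at 6.36 to 9.43 times on the HFCF diet. The share of LRP5 in the FPKM of the pair was 93.7% to 97.4% and 86.4% to 90.4%, respectively, without overlap (exact permutation p = 0.1, adjusted p = 0.2 over 12 shares).

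The 6 secreted Wnt-binding antagonists had the highest summed FPKM of the classes in every pig. FRZB (ENSSSCG00000016018), a Frizzled-related protein that binds Wnt ligands, had 130.3, 129.9 and 153.2 FPKM in the NC pigs and 36.2, 57.8 and 80.4 FPKM in the HFCF pigs. All HFCF pigs lay well below the NC pigs, with HFCF pig 1 lowest. The means were 137.8 ± 13.3 and 58.2 ± 22.1 FPKM (SD, n = 3 each), and the log2 difference was -1.31 (SE 0.28, adjusted p = 0.0152, limma). The single alternative that lost the call was leaving out NC pig 1 (adjusted p = 0.0529, limma).

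SFRP4 (ENSSSCG00000035299), of the same protein family, had 65.0, 74.7 and 64.1 FPKM in the NC pigs and 43.6, 30.4 and 47.4 FPKM in the HFCF pigs. The groups did not overlap. SFRP4 had a log2 fold change of -0.77 (SE 0.19, adjusted p = 0.0264, limma). Without NC pig 1, 2 or 3 or HFCF pig 2, SFRP4 no longer passed (adjusted p = 0.0743, 0.0815, 0.0539 and 0.0589, limma).

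SFRP1 had 13.2, 24.7 and 22.3 FPKM in the NC pigs and 10.7, 16.8 and 14.0 FPKM in the HFCF pigs, with overlap (log2 fold change -0.50, SE 0.28, adjusted p = 0.218, limma). SFRP5, with 5.46 ± 2.93 FPKM in the NC and 4.60 ± 1.98 FPKM in the HFCF pigs (SD, n = 3 each), overlapped too. SFRP2 and WIF1, which varied widely between pigs of one diet, are described with the pig-to-pig variation.

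FRZB made up 44.4%, 38% and 34% of the summed FPKM of the 6 Wnt-binding antagonists in the NC pigs, and 21.5%, 16.6% and 28.8% in those on the HFCF diet. Each HFCF share was below each NC share (exact permutation p = 0.1, adjusted p = 0.2 over 12 shares). The share of SFRP4 overlapped, at 14.2% to 22.1% and 8.70% to 25.9%. The summed FPKM of the 6 antagonists was 293.5, 341.9 and 450.0 in the NC pigs, and 168.2, 349.0 and 278.7 in those on the HFCF diet, which overlapped.

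**Figure D3:**
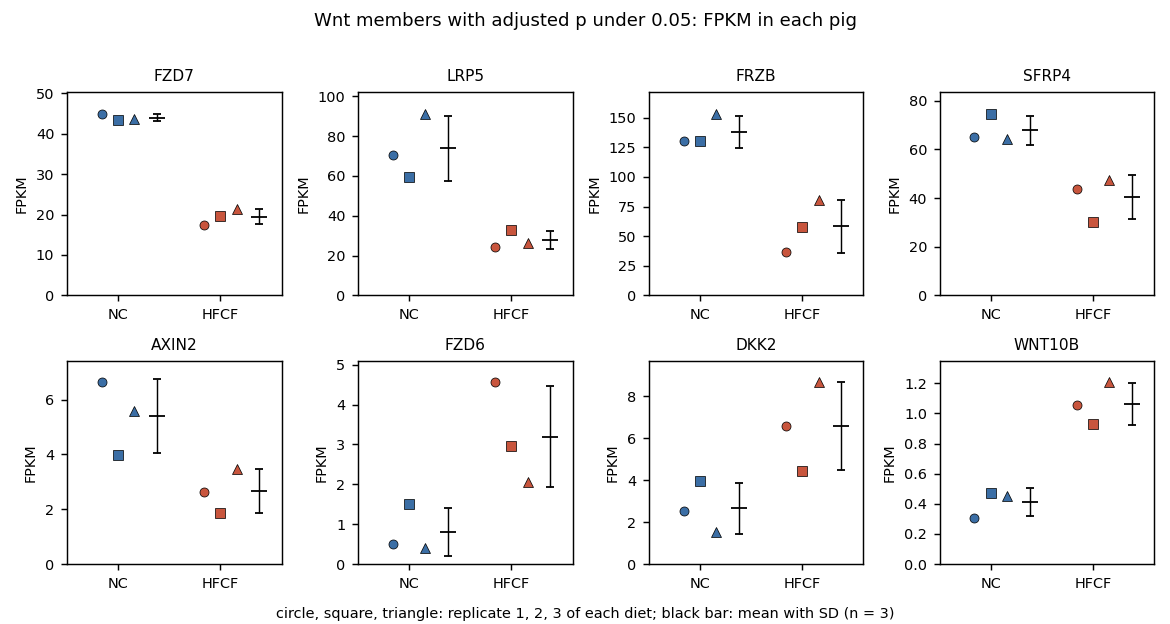
FPKM (y axis, from 0) of the 8 Wnt genes that passed at an adjusted p under 0.05, for the NC and HFCF pigs. Each symbol is 1 pig and the bar beside it gives the mean with SD (n = 3). FZD7, LRP5, FRZB, SFRP4 and AXIN2 sit lower and FZD6, DKK2 and WNT10B higher in the HFCF pigs, with no overlap in any of the 8.

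Among the Dickkopf genes, DKK2 (ENSSSCG00000032094), which binds LRP5 and LRP6, rose. It had 2.55, 3.95 and 1.51 FPKM in the NC pigs and 6.61, 4.46 and 8.67 FPKM in the HFCF pigs. NC pig 2 and HFCF pig 2 were close, but the groups did not overlap. DKK2 had a log2 fold change of 1.32 (SE 0.39, adjusted p = 0.0419, limma). The call was lost in 10 of 15 alternatives, with adjusted p from 0.0335 to 0.14 in limma, among them the 3 scalings and leaving out NC pig 1 (0.112), NC pig 3 (0.093), HFCF pig 1 (0.0924) or HFCF pig 3 (0.108).

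DKK3, a divergent family member that is not a classical Wnt inhibitor, was the highest of the family. It had 51.4, 27.4 and 37.7 FPKM in the NC pigs and 24.7, 32.1 and 37.3 FPKM in the HFCF pigs, with overlap (log2 fold change -0.28, SE 0.26, adjusted p = 0.455, limma). DKK1, the classical LRP inhibitor, was low, with 0.286 to 0.831 FPKM in the NC and 0.102 to 0.207 FPKM in the HFCF pigs. Its values did not overlap and it did not pass (log2 fold change -1.11, SE 0.45, adjusted p = 0.102, limma). DKK4 was at or near 0 in all pigs.

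AXIN2 (ENSSSCG00000017265), a scaffold of the destruction complex and a widely used readout of beta-catenin signaling, fell. It had 6.63, 3.97 and 5.59 FPKM in the NC pigs and 2.65, 1.85 and 3.47 FPKM in the HFCF pigs. The lowest NC pig was just above the highest HFCF pig. AXIN2 had a log2 fold change of -1.01 (SE 0.30, adjusted p = 0.0414, limma). It no longer passed without NC pig 1 (adjusted p = 0.135), NC pig 3 (0.102), HFCF pig 1 (0.0782) or HFCF pig 2 (0.108), all in limma.

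LEF1, a nuclear partner of beta-catenin that T cells also express, had 0.141, 0.069 and 0.137 FPKM in the NC pigs and 1.19, 0.281 and 0.181 FPKM in the HFCF pigs. HFCF pig 1 stood apart, and LEF1 did not pass (log2 fold change 1.28, SE 0.60, adjusted p = 0.153, limma). The related TCF7 had 0.159 to 0.182 FPKM in the NC pigs and 1.05, 0.106 and 0.115 FPKM in the HFCF pigs. The 5 T cell markers summed to 0.893 to 1.21 FPKM in the NC pigs and to 13.8, 3.04 and 3.08 FPKM in the HFCF pigs, highest in the same pig. Of the 5, CD3G went the other way, at 0 in HFCF pig 1 and 1.13 FPKM in HFCF pig 2. The summed macrophage and endothelial markers, given below, were highest in HFCF pig 1 as well. The part of T cells in the LEF1 values was not tested.

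The other genes of the pathway were taken from 7 lists with 76 names, of which 73 were in the table and 68 were tested. Of these, 4 passed as higher, CTHRC1, TNKS2, CCN5 and, reaching the expression limit only through the HFCF pigs, NOTUM, and 6 fell, DAAM2, APCDD1, DVL3, CSNK1D, TNC and CCND1, beside 22.8% and 6.16% of all tested genes. With the 3 scalings 1 to 2 passed as higher, NOTUM alone with median-ratio scaling and quantile normalization and NOTUM with CTHRC1 with TPM. As lower 13 to 16 passed, among them AXIN1, GSK3A, PRICKLE1 and VANGL1 with all 3. The median log2 fold change of the 68 tested genes was -0.03.

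In the cytoplasmic relay and destruction complex, 1 of 16 rose, 2 fell and 13 did not pass. At an unadjusted p under 0.05 in limma, 4 were higher and 4 lower. All genes that passed are under that limit too, at least 22.8% higher and 6.16% lower of all tested genes. The full share of all tested genes at that limit was not computed, so these counts are a description. APC had 1.114, 1.045 and 0.046 FPKM in the NC pigs and 4.965, 2.815 and 2.772 FPKM in the HFCF pigs, without overlap. It did not pass (log2 fold change 2.57, SE 0.81, adjusted p = 0.0519, limma). APC passed as higher with a pseudocount of 1, a filter of 1 FPKM, the replicate block or without NC pig 3, but not with the 3 scalings. It was singled out after its values were seen. DVL3, a Dishevelled protein that carries the signal from Frizzled, had 50.3, 48.6 and 60.2 FPKM in the NC pigs and 29.1, 30.1 and 30.1 FPKM in the HFCF pigs. All HFCF pigs lay far below the NC pigs (log2 fold change -0.82, SE 0.14, adjusted p = 0.00655, limma), and DVL3 passed in all 15 alternatives. CSNK1D, a casein kinase, fell from 29.5 ± 3.8 to 20.9 ± 0.2 FPKM (SD, n = 3 each), a call lost whichever pig was left out (adjusted p from 0.0519 to 0.121, limma). TNKS2, a tankyrase that marks AXIN proteins for removal, rose from 4.77 ± 0.79 to 7.64 ± 0.70 FPKM (SD, n = 3 each), which was a call lost with the 3 scalings (adjusted p from 0.136 to 0.201, limma) and without NC pig 1 or 3 or any 1 of the HFCF pigs (0.0522 to 0.105). CTNNB1, which encodes beta-catenin, had 17.5, 17.6 and 22.4 FPKM in the NC pigs and 28.2, 23.0 and 20.1 FPKM in the HFCF pigs, with overlap (log2 fold change 0.30, SE 0.18, adjusted p = 0.245, limma), and turned to -0.05 with median-ratio scaling.

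Among 8 tested planar cell polarity genes, DAAM2, a formin that links Dishevelled to the cytoskeleton, fell and 7 did not pass. It had 52.8, 42.9 and 49.6 FPKM in the NC pigs and 24.9, 27.0 and 27.6 FPKM in the HFCF pigs. The groups were far apart (log2 fold change -0.86, SE 0.14, adjusted p = 0.00583, limma), and it passed in all 15 alternatives. Of the 13 tested co-receptors and other receptors and the 11 tested nuclear factors, none passed in limma, and 1 in each list, lower in the HFCF group, had an unadjusted p under 0.05. With the scalings some of these passed as lower, KREMEN1 and TLE4 with all 3, TLE1 with median-ratio scaling and quantile normalization, and TLE3 with median-ratio scaling. Among the secretion genes PORCN and WLS did not pass, and WLS passed as lower with median-ratio scaling and quantile normalization. NOTUM, an enzyme that removes the lipid from Wnt proteins, was listed at 0 in NC pigs 1 and 2, at 0.035 FPKM in NC pig 3 and at 0.702, 0.150 and 0.310 FPKM in the HFCF pigs. A gene near 0 in one group that enters the test through the other had to differ, so its adjusted p of 0.0285 in limma is given as a description. Without HFCF pig 1 NOTUM fell under the expression limit and was not tested, and without NC pig 1, 2 or 3 or HFCF pig 3 it did not pass (adjusted p from 0.0528 to 0.0916, limma), nor with a pseudocount of 1 (0.0705).

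In the list of other secreted modulators 1 of 6 rose and 1 fell. CTHRC1, a secreted protein of injured arteries, had 0.896, 0.509 and 0.670 FPKM in the NC pigs and 1.35, 2.66 and 4.84 FPKM in the HFCF pigs (log2 fold change 1.80, SE 0.46, adjusted p = 0.0277, limma), a call lost in 9 of 15 alternatives, among them leaving out any NC pig or HFCF pig 2 or 3 (0.0567 to 0.0842). APCDD1, a membrane inhibitor of Wnt signaling, fell from 9.33 ± 0.87 to 5.85 ± 0.60 FPKM (SD, n = 3 each), but not without NC pig 1 or 3 or HFCF pig 2 or 3 (adjusted p from 0.0522 to 0.0773, limma). Among 11 tested feedback and target genes 1 rose and 2 fell. TNC, the matrix protein tenascin C, had 237.5, 156.9 and 236.1 FPKM in the NC pigs and 50.8, 99.1 and 64.7 FPKM in the HFCF pigs, without overlap, and passed in all 15 alternatives (log2 fold change -1.58, SE 0.28, adjusted p = 0.00836, limma). CCND1, the cell cycle gene of cyclin D1, fell from 50.7 ± 4.5 to 30.0 ± 6.8 FPKM (SD, n = 3 each), but not without any 1 of the NC pigs or HFCF pig 3 (adjusted p from 0.0502 to 0.0727, limma). CCN5 rose from 18.4 ± 4.6 to 41.3 ± 18.1 FPKM (SD, n = 3 each), which was a call lost in 10 of 15 alternatives, among them leaving out NC pig 1 or 2 or HFCF pig 2 or 3 (adjusted p from 0.0576 to 0.13, limma). MYC, another known target, had 25.6 to 47.2 FPKM in the NC and 11.3 to 22.2 FPKM in the HFCF pigs, without overlap, and did not pass (adjusted p = 0.051, limma), but passed as lower with the 3 scalings. Like APC above, MYC was singled out after its values were seen.

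The KEGG annotation of the Wnt signaling pathway, looked at after the lists above, held 107 genes that are not among the 45, of which 101 were tested. Of these, 13 passed as higher and 6 as lower, beside 22.8% and 6.16% of all tested genes, and their median log2 fold change was -0.06. This set is not separate from the lists above. It repeats NOTUM among the genes that passed as higher, and DAAM2, DVL3 and CCND1 among those that passed as lower.

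Markers of the cell types of the wall changed with the diet beside these genes. All 9 macrophage markers rose, with a summed level of 47.2 to 58.8 FPKM in the NC pigs and of 1805, 790.2 and 697.5 FPKM in the HFCF pigs. Contractile smooth muscle markers fell in 5 of 8 (ACTA2, MYH11, CNN1, SMTN and MYOCD) and had a median log2 fold change of -1.03. Their summed level was 15220 to 21460 FPKM in the NC and 7703 to 12450 FPKM in the HFCF pigs, so the tissue carried its defining markers in every library. In bulk tissue, fewer cells of a type and less RNA per cell cannot be told apart. FZD6 stood in the same order as the summed macrophage markers among the HFCF pigs, but in the reverse order among the NC pigs. In NC pigs 1, 2 and 3 FZD6 had 0.512, 1.503 and 0.406 FPKM, and the macrophage markers summed to 50.0, 47.2 and 58.8 FPKM. The summed endothelial markers, given below, stood in the same order as FZD6 within each diet. The part of macrophage or endothelial content in the FZD6 values was not tested.

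The 5 Wnt genes that fell were also set against smooth muscle, a comparison chosen after seeing the data. Each pig was divided by the geometric mean of its 8 smooth muscle markers, which was 671.2 to 917.8 FPKM in the NC and 267.4 to 431.9 FPKM in the HFCF pigs, and multiplied by the geometric mean over all 6 pigs. On this scale FZD7 had 25.8, 29.0 and 34.1 in the NC pigs, and 34.5, 27.3 and 25.9 in those on the HFCF diet, which overlapped, with a log2 fold change of -0.02 (SE 0.27, adjusted p = 0.948, limma). FRZB had 74.7, 86.9 and 120.2 in the NC pigs, and 71.4, 80.0 and 98.0 in those on the HFCF diet, with a log2 fold change of -0.16 (SE 0.27, adjusted p = 0.608, limma). The log2 fold change of LRP5 was -0.24 (SE 0.31, adjusted p = 0.496, limma), and those of AXIN2 and SFRP4 turned to 0.11 and 0.38 (adjusted p = 0.797 and 0.282, limma). None of the 5 passed relative to these markers. The markers had fallen as well, with a median log2 fold change of -1.03 and MYOCD lowest at -2.72. The loss of the calls therefore follows from the division, and these adjusted p-values are given as a description. This division lowers the NC values and raises the HFCF values, with 1 factor for each pig. It shifts log2 fold changes up by a similar amount, and their median over the genes tested went from 0.32 to 1.36. Relative to that median the 5 lay at -1.61 (LRP5), -1.52 (FRZB), -1.38 (FZD7), -1.25 (AXIN2) and -0.98 (SFRP4). These are close to their places relative to the median without the division, which follows from such a common shift. Which cells express these genes was not measured.

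**Figure D4:**
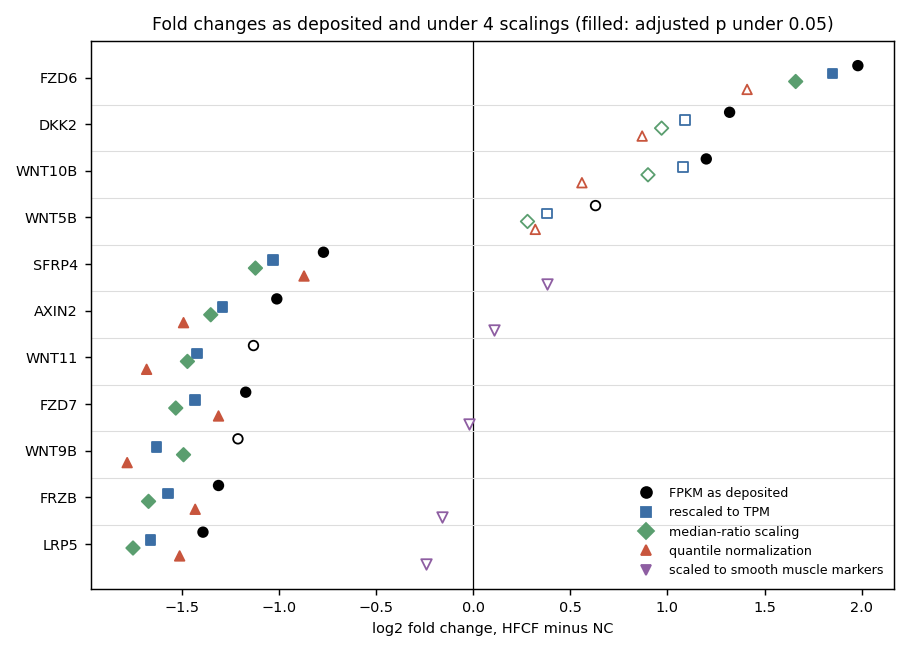
Log2 fold changes (HFCF minus NC, x axis) of 11 Wnt genes (y axis) with the deposited FPKM, 3 scalings of the libraries and, for the 5 genes that fell, scaling to the smooth muscle markers. Filled symbols passed at an adjusted p under 0.05. The 5 lie between -1.75 and -0.77 under the deposited values and the 3 library scalings and between -0.24 and 0.38 relative to the smooth muscle markers, a scale on which the median of all tested genes is 1.36.

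Several members varied between pigs of the same diet. WIF1, a secreted protein that binds Wnt ligands, had 47.0, 46.6 and 202.6 FPKM in the NC pigs and 62.4, 234.7 and 111.5 FPKM in the HFCF pigs. NC pig 3 and HFCF pig 2 were high, and WIF1 was the most abundant antagonist in those pigs and in HFCF pigs 1 and 3. The log2 fold change of 0.63 had a standard error of 0.68 (adjusted p = 0.522, limma). SOST, which encodes the LRP5 and LRP6 inhibitor sclerostin, had 0.748, 0.760 and 17.7 FPKM in the NC pigs, was listed at 0 in HFCF pig 1, and had 19.7 and 8.52 FPKM in HFCF pigs 2 and 3. NKD1, a feedback inhibitor of the pathway, had 9.21, 9.54 and 18.8 FPKM in the NC pigs and 9.18, 15.4 and 16.2 FPKM in the HFCF pigs. The same 3 pigs, NC pig 3 and HFCF pigs 2 and 3, were highest for all 3 genes, and SOST and NKD1 were picked out after their values were seen.

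SFRP2, a secreted antagonist of connective tissue cells, had 29.6, 61.1 and 5.04 FPKM in the NC pigs and 8.53, 6.47 and 21.2 FPKM in the HFCF pigs. The NC pigs spanned a range that held all HFCF values (log2 fold change -0.98, SE 0.89, adjusted p = 0.439, limma). Leaving out 1 pig moved the log2 fold change from -0.22 without NC pig 2 (adjusted p = 0.873, limma) to -2.0 without NC pig 3 (adjusted p = 0.0526, limma). The 4 adipocyte markers summed to 73.3, 120.9 and 3.81 FPKM in the NC pigs and to 12.3, 5.58 and 17.1 FPKM in the HFCF pigs, so pigs stood in the same order as for SFRP2 within each diet. The part of fat tissue in the SFRP2 values was not tested. Endothelial markers, with 7 tested and none that passed in limma (2 higher at an unadjusted p under 0.05), summed to 205.3, 226.5 and 109.1 FPKM in the NC pigs and to 256.4, 146.9 and 96.2 FPKM in the HFCF pigs, which overlapped. Of the tested fibroblast and T cell markers, LUM and CD2 passed, both higher. None of the 4 adipocyte, 3 skeletal muscle and 4 Schwann cell markers passed in limma, and at an unadjusted p under 0.05 there was 1, lower, among the skeletal muscle markers. The 3 mesothelial markers matched no name in the table and were not analysed here.

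**Figure D5:**
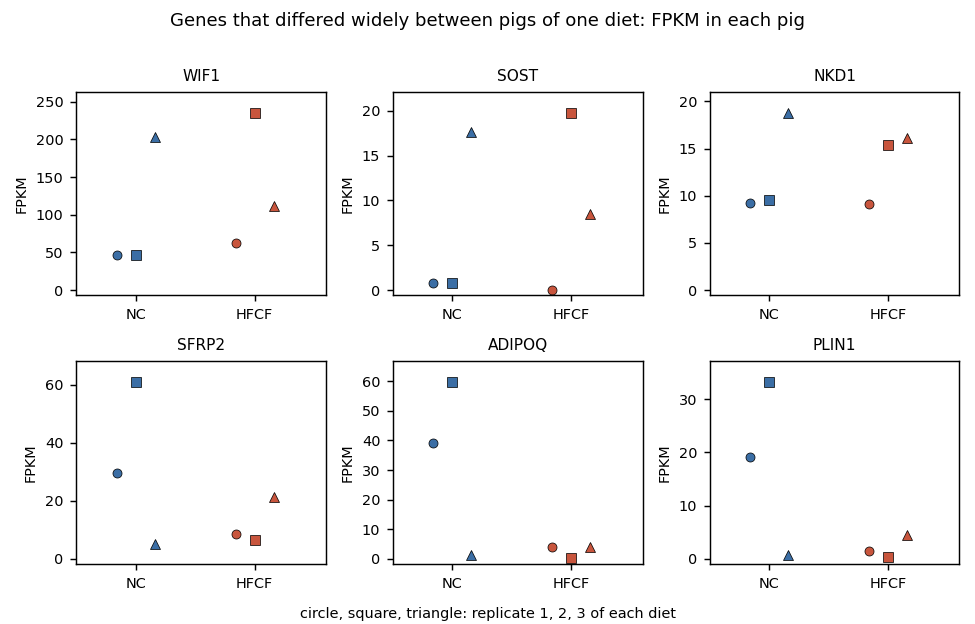
FPKM (y axis) of WIF1, SOST, NKD1, SFRP2 and the adipocyte genes ADIPOQ and PLIN1 in each NC and HFCF pig, with 1 symbol per pig. WIF1, SOST and NKD1 are high in NC pig 3 and in HFCF pigs 2 and 3, and SFRP2, ADIPOQ and PLIN1 are highest in NC pig 2, with NC pig 3 the lowest NC pig for all 3.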

How the data were processed

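mRNA sequencing of the abdominal aorta was analysed in 3 NC and 3 HFCF pigs, 1 library from each, grouped by the diet in the labels. The authors trimmed reads with cutadapt (version 1.9 in the submitters' processing notes), checked them with FastQC, aligned them with HISAT2 and assembled transcripts with StringTie. The deposited values are FPKM per gene, and a value of 1e-04 was read as 0. The methods name an older pig genome build than the gene annotation tables used here, so no coordinates are given. Read counts were not used here, so the depth behind a value is known only in relative terms.

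Values were analysed as log2(FPKM + 0.1), computed from the deposited FPKM, for the 15384 of 30477 genes with a mean of at least 0.1 FPKM. The moderated test of limma 3.58.1 in R 4.3.3 (empirical Bayes with a trend, diet as the only term) was run on all of these genes, with Benjamini-Hochberg adjustment over all of them, and was tested on simulated data. The added 0.1 makes log2 differences of low genes smaller than they are. Counts at an unadjusted p under 0.05 are given as a description, because the share of all tested genes at that limit was not computed. Shares within a class were compared with an exact two-sided permutation test. No label names the animal behind a library, so each numbered library was taken as 1 pig, and p-values measure only the spread between these samples, which may be technical.

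Named were the members that passed or reached a mean of 1 FPKM in either group, CTNNB1, and up to 3 genes with the largest change among those that passed in each pathway list. Outside this rule, values were also given for FZD3, FZD5, DKK1, LEF1 and TCF7 and for genes singled out after their values were seen. The members and lists were chosen with earlier results of these data known. Alternatives were other pseudocounts, filters and scalings (median-ratio, quantile, TPM), the test without a trend, the replicate number as a block and leaving out each pig. Tables of differential expression from the study were not used.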

Additional observations from a re-analysis of the deposited data

How the results depend on the processing

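FZD7 and LRP5 passed as lower in all 15 alternatives, FRZB in 14 and AXIN2 and SFRP4 in 9, while FZD6 passed as higher in 10, DKK2 in 5 and WNT10B in 6 of 14. Over all genes, 2035, 1748, 2229 and 2232 passed as higher with median-ratio scaling, quantile normalization, TPM and the replicate block, and 1969, 1782, 1527 and 540 as lower; without 1 pig the ranges were 1979 to 2815 and 442 to 786. Members that passed as higher numbered 1 without a filter, with median-ratio scaling, TPM or the block, 0 with quantile normalization in limma (1 at an unadjusted p under 0.05) and 0 to 4 without 1 pig, and those lower 2 to 6 without 1 pig. Other pathway genes that passed as higher numbered 2 without a filter, with TPM or without the trend, 1 with median-ratio scaling, quantile normalization or the block, and 0 to 2 without 1 pig (0 without NC pig 1 or HFCF pig 3, with 5 each at an unadjusted p under 0.05 in limma). NOTUM, near 0 in the NC pigs, was among these without a filter, with the 3 scalings and without the trend. Other pathway genes that passed as lower numbered 16, 15 and 13 with median-ratio scaling, quantile normalization and TPM, and 3 to 5 without 1 pig.

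Directions turned with median-ratio scaling, quantile normalization and TPM in LRP6 (-0.13, -0.28 and -0.04), WNT9A (-0.34, -0.49 and -0.25) and FZD8 (-0.16, -0.20 and -0.07), with the first pair in WNT2B (-0.05 and -0.39) and FZD2 (-0.09 and -0.16), and with median-ratio scaling in CTNNB1 (-0.05). Division by the smooth muscle markers, which shifts log2 fold changes up in common (median 1.36), gave AXIN2 0.11 and SFRP4 0.38, or -1.25 and -0.98 relative to that median. Without 1 pig, ranges crossed 0 in WNT9A (-0.17 to 0.15), FZD2 (-0.02 to 0.63), FZD8 (-0.05 to 0.44), SFRP5 (-0.60 to 0.21) and the share of SFRP4 (-6.56 to 2.07 percentage points). The cause of these changes was not tested. Replicate numbers are shared by the diets, but deviations of pigs with the same number correlated at 0.02, -0.08 and -0.07, below the 0.13 of NC pig 3 and HFCF pig 2, so the numbers were not taken to pair pigs. With the replicate block, DKK2 (adjusted p = 0.0997), WNT10B (0.0661) and SFRP4 (0.0699) no longer passed in limma. With a filter of 1 FPKM no value could be given for WNT10B, WNT2B, FZD4 and NOTUM. With 3 pigs a group, exact tests could not go below p = 0.1.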
